A study of Mus musculus with 6 samples.

Results

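The immediate early genes are described here by 10 members, namely Fos, Fosb, Jun, Junb, Egr1, Ier2, Ier3, Atf3, Dusp1 and Btg2, out of 45706 genes in the count table of 3T3-L1 adipocytes with reduced Rbms1. They were taken by gene name, and the group was chosen by the measured counts of Ier2 and Dusp1, which were lower in the knockdown, so the difference between knockdown and control is given for these genes as a description without a test. All 10 were found and all 10 passed the filter on low counts. 3T3-L1 is a mouse embryo fibroblast line that turns into fat-storing adipocytes when given hormones, and RBMS1 is an RNA-binding protein. The study asked what the loss of RBMS1 does to the adipocyte transcriptome. The 3 samples of the scrambled control group carried a scrambled shRNA (genotype WT in the labels), and the 3 samples of the RBMS1 knockdown group carried an Rbms1 shRNA (genotype RBMS1KD).

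The cells were made by lentiviral transduction and puromycin selection, and the methods describe cells that stably express the shRNA and name no clone. Both groups were given IBMX, insulin, dexamethasone and rosiglitazone and were collected on day 7, so no group without these agents enters the comparison. The methods call the samples biological replicates and do not say whether they came from separate transductions, so the spread between samples may be that of cultures of the same transduced cells. RNA is from whole cultures, in which fewer cells of a type and less RNA per cell cannot be told apart. The cell type label reads Fibroblast, whereas the adipocyte markers Lpl (5350 to 14510 CPM), Fabp4 (2127 to 4203 CPM) and Adipoq (1056 to 2649 CPM) were abundant in every sample, together with the collagens Col1a2, Col3a1 and Col1a1 (875 to 5589 CPM). CPM are counts scaled to a common library size by TMM, which corrects for differences in RNA composition.

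Immediate early genes are switched on within minutes of a growth factor, hormone, stress or a change of medium, from transcription factors that are already in the cell and without new protein synthesis. Serum response factor with its ternary complex partners, and CREB, which binds the cAMP response element (CRE), are the best known of these factors. The transcripts are short-lived, and many carry AU-rich elements in the 3′ UTR that speed their decay. Fos, Fosb, Jun, Junb and Atf3 encode bZIP proteins of the AP-1 and ATF group, Egr1 encodes a zinc finger factor, Dusp1 encodes a phosphatase that switches off MAP kinases, and Btg2 belongs to the antiproliferative BTG/TOB family, which recruits deadenylase. In adipogenesis these genes are known for the burst that follows the hormonal cocktail, well before the stage sampled here.

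The upstream sequences of Dusp1, Btg2 and Fos are shown as examples that hold CRE letters. A link between these letters and the levels of the genes was not tested. They are the 250 bases before the RefSeq transcription start on GRCm38.p6, 5′ to 3′ on the strand of the gene, and capitals mark the full CRE (TGACGTCA) or its TGACG core.
Dusp1, chr17:26508473-26508722, minus strand: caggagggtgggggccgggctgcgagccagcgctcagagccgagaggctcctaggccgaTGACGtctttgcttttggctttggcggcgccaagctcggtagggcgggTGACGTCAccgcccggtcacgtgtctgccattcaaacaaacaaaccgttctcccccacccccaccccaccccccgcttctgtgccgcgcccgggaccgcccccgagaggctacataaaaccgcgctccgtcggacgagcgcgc
Btg2, chr1:134079156-134079405, minus strand: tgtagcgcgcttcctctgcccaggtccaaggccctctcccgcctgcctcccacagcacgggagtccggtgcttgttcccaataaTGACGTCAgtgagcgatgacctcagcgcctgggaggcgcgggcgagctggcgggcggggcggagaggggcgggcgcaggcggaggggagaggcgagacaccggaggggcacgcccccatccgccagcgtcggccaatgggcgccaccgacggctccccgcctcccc
Fos, chr12:85473640-85473889, plus strand: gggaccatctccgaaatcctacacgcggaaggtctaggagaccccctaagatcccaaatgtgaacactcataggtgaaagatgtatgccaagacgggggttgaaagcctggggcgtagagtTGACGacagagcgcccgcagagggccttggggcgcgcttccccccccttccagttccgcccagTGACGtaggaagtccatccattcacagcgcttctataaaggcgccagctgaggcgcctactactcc

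Motifs were counted on both strands, except the TATA letters, over 32851 RefSeq promoters of 27025 genes. Each promoter runs from 250 bases before to 50 bases after the start. Of the 10 members, 8 were examined, since Ier2 and Egr1 had no entry among these promoters. The full CRE lay in Dusp1, from -143 to -136, and in Btg2, from -166 to -159, so in 2 of 8 members, and 1.79% of all promoters held it. The TGACG core, which the full CRE also contains, was present in 6 of 8 members (Fos, Fosb, Junb, Atf3, Dusp1 and Btg2) and in 20.8% of promoters. The GC box GGGCGG was in 7 of 8 members, Junb being without it, and in 35.7% of promoters. TATAAA, read on the strand of the gene, was in Fos from -33 to -28 and in Junb at the start itself, and in 8.32% of promoters. None of the 8 had an AP-1 site (TGANTCA, 7.81% of promoters) or a CArG box, the serum response factor motif (1.63%), in this window. Sequence further upstream was not examined, so sites there would have been missed. A match of letters describes the sequence and does not show that a factor was bound.

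In the 3′ UTR, the pentamer ATTTA is the simplest form of an AU-rich element, and the nonamer TTATTTATT the stricter one. The 25 bases around such elements are shown for the members with the nonamer, Fos and Dusp1, and for Ier3, which has the most pentamers per kilobase (8.16). They are the DNA letters of the transcript strand from GRCm38 with GENCODE M21 gene models, and capitals mark the element.
Fos: gttttcaATTTATTTATTaagatgg
Dusp1: ctggtccTTATTTATTTAacacccc
Ier3: tctaattaatATTTAtgtATTTAtg
The pentamer occurred in 9 of the 10 members and the nonamer in 2, which is 90.0% and 20.0% of the members, against 70.6% and 8.16% of 10712 other tested genes with a 3′ UTR. Ier2, which had no pentamer in a 3′ UTR of 755 bases, was the exception. The members held a median of 2.885 pentamers per kilobase and the other genes 1.339, at a median 3′ UTR length of 1000.5 and 1189 bases.

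In their longest annotated transcript the members had a median of 2 exons, against 9 over the 11402 tested genes that were found in the annotation. That transcript has a single exon for Jun, Junb and Ier2, as for 5.55% of tested genes, and 4 exons or fewer for each of the 10, as for 23.9% of tested genes. The median span of the gene model from first to last base was 4093 bp for the members and 23065 bp for the tested genes, with Atf3 and Dusp1 above the latter through transcripts that start far upstream.

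Total estimated counts ran from 3142699 to 11073111 per sample, and 11440 genes were tested. A gene absent from a sample could have reached 0.220 to 1.49 CPM, the level of 3 counts, which covers counting error only. Control replicate 2 had the smallest library and stood apart by the share of counts from ribosomal RNA-derived genes (43.0%, against 8.12% to 17.8% elsewhere). Rbms1, the targeted gene, measured 113, 102 and 99.6 CPM in the control and 49.2, 61.4 and 84.0 CPM in the knockdown. All knockdown samples lay below all controls, but the log2 fold change of -0.69 (SE 0.20) was not called by the quasi-likelihood test of edgeR (adjusted p = 0.185 after Benjamini-Hochberg adjustment). Without knockdown replicate 3 it was called (adjusted p = 0.0708, edgeR). The paper reports the knockdown at the protein level by immunoblot, which these counts do not measure. A gene counted as called at an adjusted p of 0.1 or less, and by this rule 140 of the 11440 genes (1.22%) were called, 104 lower and 36 higher in the knockdown.

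Most immediate early transcripts were lower in the RBMS1 knockdown samples, and the level differed widely from culture to culture within that group. Of the 10 members, 9 had a log2 fold change below 0, as 49.6% of all tested genes did, and Atf3 had one above 0. The median log2 fold change was -1.56 for the members and 0.0044 for all tested genes. Ier2 and Dusp1, the genes behind the choice of the group, were the 2 called lower, where 0.909% of tested genes were called in that direction. In 7 members every knockdown sample was below every control, a pattern found in 9.55% of tested genes. These counts come from the contrast that was used to choose the group, and nothing is read from them.

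**Figure D1:**
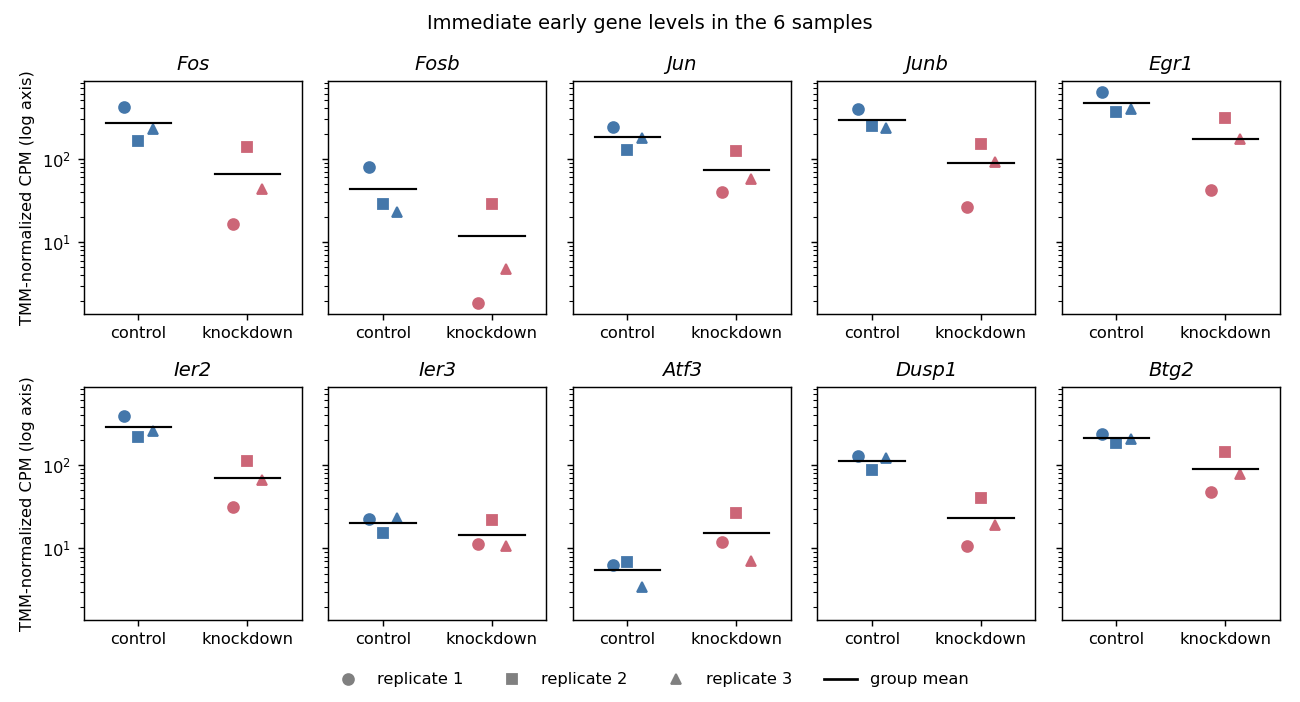
Level of each immediate early gene in the 6 samples, in TMM-normalized CPM on a log axis, with controls in blue, knockdown samples in red, the shape giving the replicate number and the bar the group mean. Knockdown replicate 2 is the highest knockdown sample in all 10 panels, and knockdown replicate 1 the lowest in 8.

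Fos (ENSMUSG00000021250) encodes the archetypal partner of the Jun proteins in AP-1. It lies on chromosome 12 from 85473890 to 85477273 on the plus strand of GRCm38, with 4 exons in its longest transcript. Its level was 412, 161 and 227 CPM in the control samples and 16.4, 139 and 43.2 CPM in the knockdown samples. The groups did not overlap, although knockdown replicate 2 came close to control replicate 2. The mean was 267 ± 130 CPM in the control and 66.2 ± 64.5 CPM in the knockdown (SD, n = 3 each), a log2 fold change of -2.01 (SE 0.65).

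Fosb (ENSMUSG00000003545, chromosome 7, 19302696 to 19310051, minus strand), a close relative of Fos, was the least abundant of the Fos and Jun members. It measured 79.2, 28.8 and 23.1 CPM in the control and 1.87, 28.6 and 4.85 CPM in the knockdown. Here the groups overlapped, since knockdown replicate 2 was above control replicate 3. The log2 fold change of -1.90 had the largest error of the 10 members (SE 0.84), and it was -3.65 without knockdown replicate 2 and -1.13 without control replicate 1. In knockdown replicate 1 the gene rested on 13 counts, against 245 counts in knockdown replicate 2.

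Jun (ENSMUSG00000052684, chromosome 4, 95049034 to 95052222, minus strand) encodes c-Jun, which binds DNA with Fos or with itself. It was at 240, 127 and 179 CPM in the control and at 39.8, 124 and 57.0 CPM in the knockdown. The groups were separated only by the small gap between control replicate 2 and knockdown replicate 2. The means were 182 ± 56.5 and 73.5 ± 44.2 CPM, with a log2 fold change of -1.31 (SE 0.39). The antisense gene Junos overlaps Jun but had only 26 counts over the 6 samples.

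Junb (ENSMUSG00000052837, chromosome 8, 84974484 to 84978718, minus strand) encodes JunB, a Jun protein with weaker transactivation that can counter c-Jun. Its values were 395, 247 and 235 CPM in the control and 26.3, 150 and 90.9 CPM in the knockdown. The groups did not overlap, and the knockdown samples were far apart from each other. The log2 fold change was -1.72 (SE 0.50), from means of 292 ± 89.5 and 88.9 ± 61.6 CPM. Junb overlaps Prdx2, which lies on the other strand and had 4040 counts in all. The libraries were stranded, but the use of strand in the counting is not stated, so that reads of these genes could have been mixed. The same limit holds for Dusp1 and the opposite gene Ergic1, which had 5658 counts.

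Atf3 (ENSMUSG00000026628, chromosome 1, 191170296 to 191218039, minus strand), a stress-inducible bZIP factor that mostly represses transcription, ran the other way. It was at 6.25, 6.95 and 3.44 CPM in the control and at 11.9, 26.8 and 6.97 CPM in the knockdown. All knockdown values lay above the controls, as in 8.96% of tested genes, but knockdown replicate 3 barely exceeded control replicate 2. The means of 5.55 ± 1.86 and 15.2 ± 10.3 CPM gave a log2 fold change of 1.48 (SE 0.49). Counts were low, from 14 in control replicate 2 to 229 in knockdown replicate 2.

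Egr1 (ENSMUSG00000038418, chromosome 18, 34859823 to 34864984, plus strand) encodes a zinc finger factor that is a classic readout of ERK signaling. It had the highest CPM of the members in the control, at 637, 359 and 389 CPM, and measured 42.7, 306 and 175 CPM in the knockdown. No knockdown sample reached the controls, and knockdown replicate 2 came nearest. The means were 462 ± 153 and 174 ± 132 CPM, with a log2 fold change of -1.40 (SE 0.55).

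Ier2 (ENSMUSG00000053560, chromosome 8, 84661331 to 84662852, minus strand) is a short single-exon gene for a nuclear protein induced by growth factors. Its values were 382, 217 and 252 CPM in the control and 31.5, 110 and 66.1 CPM in the knockdown. The groups were well apart, with the highest knockdown sample at 0.508 times the lowest control. The means of 284 ± 86.8 and 69.3 ± 39.5 CPM corresponded to a log2 fold change of -2.03 (SE 0.40), or 4.10-fold lower.

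Ier3 (ENSMUSG00000003541, chromosome 17, 35821684 to 35822923, plus strand), a stress-inducible gene linked to survival of cells, showed the smallest difference. It measured 22.6, 15.4 and 22.9 CPM in the control and 11.4, 21.9 and 10.6 CPM in the knockdown. Knockdown replicate 2 sat within the control range, so the groups overlapped. The log2 fold change was -0.49 (SE 0.31).

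Dusp1 (ENSMUSG00000024190, chromosome 17, 26505590 to 26562128, minus strand) encodes MKP-1, a nuclear phosphatase that inactivates p38, JNK and ERK. It stood at 128, 85.9 and 123 CPM in the control and at 10.6, 40.2 and 19.2 CPM in the knockdown. This was the widest gap among the members, with the highest knockdown sample at 0.468 times the lowest control. The means were 112 ± 22.9 and 23.3 ± 15.2 CPM, with a log2 fold change of -2.27 (SE 0.41), or 4.81-fold lower, the largest of the 10 in size.

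Btg2 (ENSMUSG00000020423, chromosome 1, 134075170 to 134079120, minus strand) encodes an antiproliferative protein. Its level was 234, 183 and 207 CPM in the control and 47.0, 144 and 77.7 CPM in the knockdown. The controls lay close together and the groups did not overlap. The means were 208 ± 25.2 and 89.6 ± 49.6 CPM, with a log2 fold change of -1.21 (SE 0.34).

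**Figure D2:**
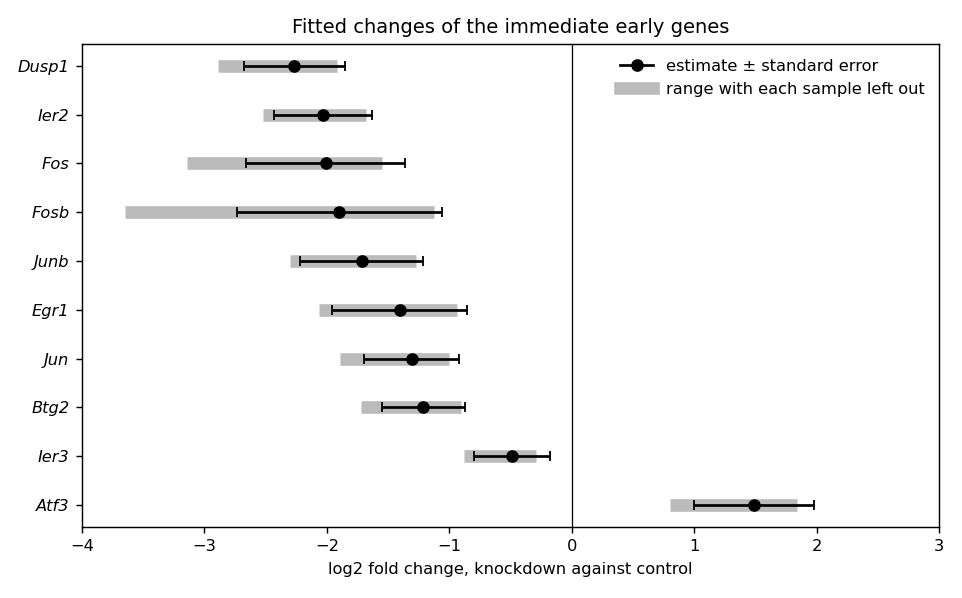
Log2 fold change of each member, knockdown against control, with its standard error (black), and the range of the estimate when each of the 6 samples was left out in turn (gray). The estimates run from -2.27 for Dusp1 to 1.48 for Atf3, and no gray bar crosses 0.

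The sign of each member's change was the same in all 15 other ways of running the fit, among them leaving out each sample. The size moved more, and without knockdown replicate 2 the log2 fold change was -3.14 for Fos, -0.88 for Ier3 and 0.80 for Atf3. The median of the members moved between -2.18 and -1.12 in these, with both ends reached by leaving out a sample. Which members passed the threshold varied more. Without control replicate 2, the library rich in ribosomal RNA, the median was -1.69. None passed when any of the control samples was left out, and without knockdown replicates 1, 2 and 3 the counts were 4, 5 and 1.

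Levels of different genes were compared per kilobase of exon sequence. In the control the order of mean CPM per kb was Ier2 (186.5), Junb (127), Fos (113), Egr1 (103), Btg2 (75.8), Jun (57.0), Dusp1 (33.9), Ier3 (17.9), Fosb (7.00) and Atf3 (2.58). The ranges of neighbors in this order overlapped from Ier2 down to Jun, whereas Jun and Dusp1, Dusp1 and Ier3, Ier3 and Fosb, and Fosb and Atf3 did not overlap. In the knockdown the order of mean CPM per kb was Ier2 (45.5), Egr1 (38.9), Junb (38.6), Btg2 (32.7), Fos (28.1), Jun (23.0), Ier3 (12.9), Atf3 (7.07), Dusp1 (7.05) and Fosb (1.89). In the knockdown the ranges of all neighbors in the order overlapped. Dusp1, the antagonist of MAP kinases, ranked above Ier3 and Atf3 without overlap in the control, whereas its knockdown range overlapped both of theirs. Per kilobase of the longest transcript in place of all exons the control order of the means was the same, but the mean level of Dusp1 was then 56.4 CPM per kb, next to 57.0 for Jun, and the control ranges of Jun and Dusp1 and of Ier3 and Fosb overlapped.

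The members shared a second property that the choice of the group did not use, a large spread between samples of the same group, mainly in the knockdown. The SD of log2 CPM within groups lay between the 77.3 and the 98.9 percentile of all tested genes, lowest for Ier3 and highest for Fosb. Set only against the 1000 genes nearest in mean CPM, the percentiles were 87.7 to 99.5. The control SD alone was between the 32.9 percentile (Btg2) and the 95.8 (Fosb), and the knockdown SD between the 84.7 (Ier3) and the 99.5 (Fosb). The median of the SD within groups over the members was 0.74 on the log2 scale, and it was 0.50 without knockdown replicate 1 and 0.54 without knockdown replicate 2. In all 10 members the spread was larger in the knockdown than in the control, as it was in 52.4% of tested genes.

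The spread had the same order of samples in nearly every member. Knockdown replicate 2 was the highest knockdown sample in all 10, which holds for 29.2% of tested genes, and knockdown replicate 1 was the lowest in 8, which holds for 37.8%. The full order of replicates 2, 3 and 1, from high to low, was seen in 8 members and in 16.2% of tested genes. In 8 members knockdown replicate 2 had at least 3 times the level of knockdown replicate 1, which 3.49% of tested genes had. The ratio was 15.3 for Fosb, 8.48 for Fos, 7.16 for Egr1 and 5.68 for Junb, and it was smallest for Ier3 (1.93). Among the controls, replicate 1 was the highest in 8 members, against 35.0% of tested genes. Most members varied together from sample to sample, and Fosb and Atf3 lay furthest from the median pattern of the members. The members are not independent of each other, so that these counts describe the 6 cultures.

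**Figure D3:**
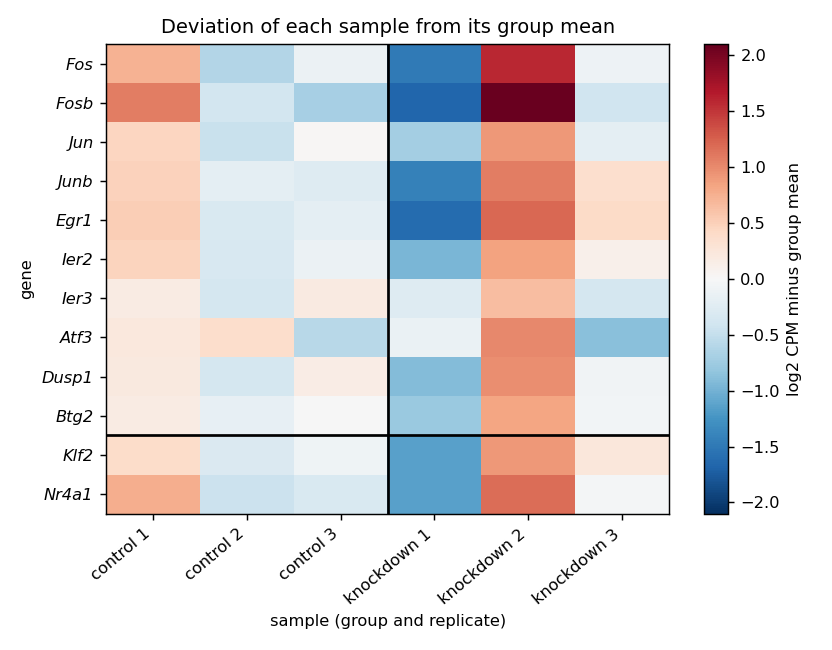
Deviation of each sample from its group mean, in log2 CPM with a prior count of 2, for the 10 members and, below the line, for Klf2 and Nr4a1. Klf2 and Nr4a1 come from the genes picked for a pattern close to that of the members, so their likeness follows from the choice. Knockdown replicate 1 is below 0 and knockdown replicate 2 above 0 in every row, from 0.65 for Ier3 to 2.08 for Fosb in replicate 2.

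The summed level of the 10 members was 1431 to 2535 CPM in the control, and 239.5, 1090 and 551 CPM in knockdown replicates 1, 2 and 3. Other lists moved between the same samples. The 10 fibroblast and preadipocyte markers summed to 10350 to 11910 CPM in the control and to 5758, 12880 and 13310 CPM in knockdown replicates 1, 2 and 3, and each of the 10 was lowest in knockdown replicate 1 among the knockdown samples. The 10 adipocyte markers summed to 22860 to 25760 CPM in the control and to 21620, 12290 and 14810 CPM in the knockdown. In knockdown replicate 2, which had the highest member sum of the knockdown samples, below those of the controls, the adipocyte marker sum was the lowest of the 6 samples. None of the 20 markers in these lists was called, and 1.22% of all tested genes were. The log2 fold change was below 0 in 9 of the 10 adipocyte markers (median -0.42). It was below 0 in 7 of the 10 fibroblast and preadipocyte markers (median -0.08), against 49.6% of all tested genes. The 9 macrophage and endothelial markers summed to 1.55 to 4.47 CPM in every sample, with Ptprc, Adgre1 and Kdr at 0 counts throughout and Cd68 at 0.688 to 3.27 CPM. The part of these cell state markers in the spread of the immediate early genes was not tested.

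Among the tested genes other than the members, the 5 genes whose deviations from the group mean were most like the median deviation of the members were sought, by the root mean square difference over the 6 samples. They were Clec11a (0.154), Klf2 (0.164), Nr4a1 (0.191), S100g (0.194) and Enpp1 (0.195). Nr4a1, an immediate early nuclear receptor, measured 103, 44.2 and 48.7 CPM in the control and 7.91, 40.4 and 17.3 CPM in the knockdown, with a log2 fold change of -1.58 (SE 0.53). Klf2, a Krüppel-like factor induced by shear stress and MEK5, measured 21.2, 12.9 and 15.1 CPM in the control and 1.73, 8.07 and 4.92 CPM in the knockdown, with a log2 fold change of -1.74 (SE 0.46). Both had no overlap between the groups and were not called by edgeR with Benjamini-Hochberg adjustment (adjusted p = 0.252 and 0.152). The other 3 genes were near the limit of detection, with group means of 0.799 to 2.37 CPM.

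The makeup of the AP-1 families followed from these levels. In CPM per kb, Fos made up 81.2% to 86.5% of the Fos family in the control samples and 25.0%, 73.6% and 66.3% in knockdown replicates 1, 2 and 3. The shares of Fosl1 and Fosl2, the Fos relatives that are known to be induced later and to last longer, were 3.26% to 5.20% and 4.90% to 8.19% in the control. They were 8.38% to 36.3% and 12.3% to 37.6% in the knockdown, above every control. Fosl1 and Fosl2 themselves, named here after their values were seen, differed little, with log2 fold changes of 0.15 (SE 0.49) and 0.08 (SE 0.23). In the Jun family, Junb made up 45.1% to 48.4% in the control and 17.7% to 38.9% in the knockdown, and Jund, the constitutive member, 30.1% to 33.6% and 37.9% to 63.0%. The share of Jun overlapped between the groups, at 17.9% to 24.8% and 16.4% to 23.2%. The shares repeat the contrast of the members and carry no test.

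**Figure D4:**
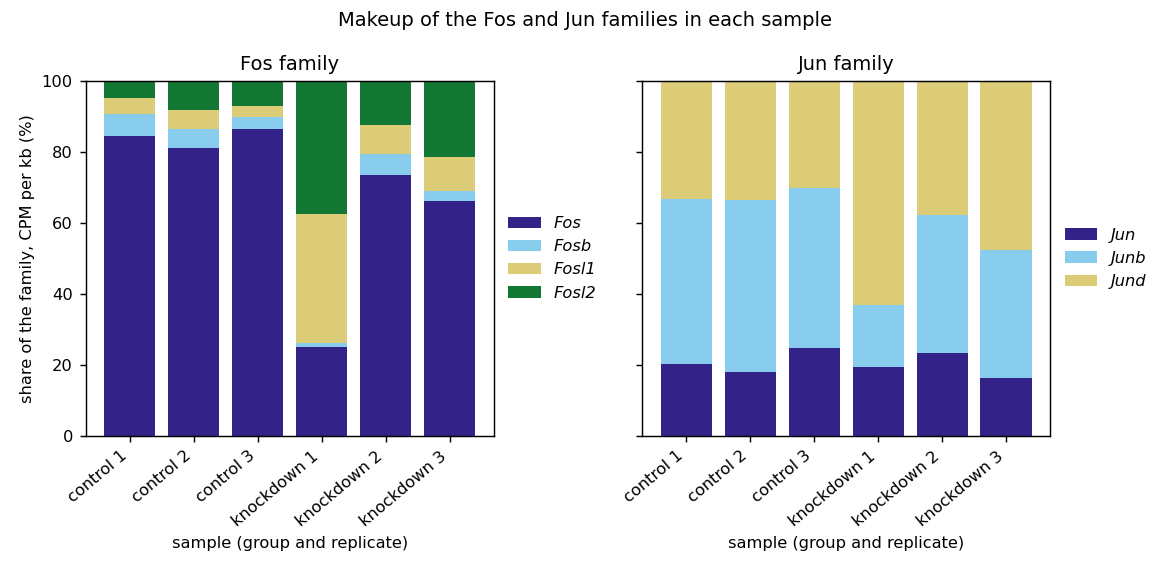
Share of each gene in the summed CPM per kb of the Fos family (left) and of the Jun family (right) in each of the 6 samples, in percent. Fos fills at least 81.2% of the left bars in the controls and 25.0% in knockdown replicate 1, and Jund reaches 63.0% of the right bar in knockdown replicate 1.

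Genes around the immediate early program were followed in lists written with earlier results of these data known, and a list was described by its counts and its median beside those of all tested genes (1.22% called, median 0.0044). With library sizes alone the median of all tested genes moved to 0.37, and those of the lists below moved with it, to 0.40 for the other AP-1 genes, -0.02 for the other early response genes, 0.38 for the upstream factors, -0.25 for the phosphatases, 0.24 for the mRNA decay genes and 0.28 for the heat shock genes. The last 2 thereby changed sign. Of 13 other AP-1 genes, 10 were tested, none was called by edgeR (1 at an unadjusted p under 0.05, and 0 by DESeq2), and the median log2 fold change was 0.05 (-0.08 to 0.13 with a sample left out). Jund was at 205, 124 and 114 CPM in the control and 68.0, 106 and 86.8 CPM in the knockdown, with a log2 fold change of -0.77 (SE 0.25, adjusted p = 0.235). Atf4, the factor of the integrated stress response, and Atf7 had log2 fold changes of -0.19 and 0.02.

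Of 35 other early response genes, 32 were tested. The log2 fold change was below 0 in 22 of them (68.8%, against 49.6% of all tested genes), and the median was -0.37 (-0.56 without knockdown replicate 2 and -0.26 without control replicate 1). In 11 the knockdown samples were all below the controls (9.55% of all tested genes), and 2 were called, both lower. Gadd45g, a stress-inducible growth arrest gene, measured 26.3, 37.7 and 22.4 CPM in the control and 10.1, 14.6 and 13.8 CPM in the knockdown, without overlap. It fell by 1.15 on the log2 scale (SE 0.25, adjusted p = 0.0957, edgeR with Benjamini-Hochberg adjustment). Errfi1, a feedback inhibitor of the EGF receptor, measured 61.2, 49.1 and 54.2 CPM in the control and 26.6, 29.0 and 34.0 CPM in the knockdown, and fell by 0.88 (SE 0.17, adjusted p = 0.0730, edgeR with Benjamini-Hochberg adjustment). The Errfi1 groups did not overlap. Both calls were lost with library sizes alone (adjusted p = 0.274 and 0.376, edgeR), where 1 other gene of the list was called, and that of Gadd45g was lost narrowly with RLE size factors (0.103). Both were also lost without any single control sample (adjusted p from 0.196 to 0.323 for Gadd45g and from 0.171 to 0.238 for Errfi1) and without knockdown replicate 2 (0.228 and 0.234), and that of Gadd45g also without knockdown replicate 3 (0.124).

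Among abundant early response genes that were not called, Rhob, a small GTPase, was at 392, 285 and 333 CPM in the control and at 218, 216 and 220 CPM in the knockdown, so that its knockdown samples were close together (log2 fold change -0.63, SE 0.16, adjusted p = 0.146, edgeR). Cebpb, an early adipogenic factor, and Mcl1, an antiapoptotic gene, had overlapping groups, with log2 fold changes of -0.34 and -0.04. Egr2, named after its values were seen, had the lowest estimate of the list, at 57.4, 27.8 and 47.8 CPM in the control and 2.30, 16.7 and 6.46 CPM in the knockdown (log2 fold change -2.39, SE 0.58, adjusted p = 0.127, edgeR). Like 9 of the members, 13 of the 32 genes had at least 2 times the level in knockdown replicate 2 that they had in replicate 1, and 7.90% of all tested genes did so. So did 7 of the 10 fibroblast and preadipocyte markers, among them Col1a1 and Col1a2.

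The kinases and transcription factors known to act upstream were all tested, 32 of 32. Their median log2 fold change was 0.01, 14 were below 0, and 1 was called. Egfr, the receptor for epidermal growth factor, measured 71.3, 72.0 and 85.3 CPM in the control and 13.8, 24.3 and 16.1 CPM in the knockdown. The groups were far apart, and knockdown replicate 2 was again the highest knockdown sample. Egfr fell by 2.08 on the log2 scale (SE 0.23, adjusted p = 0.0125, edgeR with Benjamini-Hochberg adjustment), and it was called in all 15 alternatives (adjusted p up to 0.0663). The ternary complex factor Elk4 (log2 fold change 0.44, SE 0.14, adjusted p = 0.236, edgeR) was not called. None of the 32 had 2 times the level in knockdown replicate 2 that it had in replicate 1.

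Of 11 other dual-specificity phosphatases, 9 were tested, with a median log2 fold change of -0.59, 7 below 0 and 1 called. The median rested on few genes and was -0.12 without control replicate 1, -0.27 without knockdown replicate 1 and -0.83 without control replicate 3. Dusp4, a nuclear phosphatase for ERK and JNK, measured 42.6, 33.2 and 38.2 CPM in the control and 22.1, 18.8 and 23.0 CPM in the knockdown, without overlap. It fell by 0.84 (SE 0.18, adjusted p = 0.0913, edgeR with Benjamini-Hochberg adjustment), and the call was lost without any single control, without knockdown replicate 2 (adjusted p = 0.288) and without replicate 3 (0.119). Dusp16 and Dusp10, the most abundant of the rest, had log2 fold changes of 0.04 and -0.19.

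Of 17 genes of the BTG/TOB family and of AU-rich element mRNA decay, none was called by edgeR (3 at an unadjusted p under 0.05, and 1 by DESeq2), and the median log2 fold change was -0.12. The log2 fold change was below 0 in 12 of them (70.6%, against 49.6% of all tested genes). In 5 the knockdown samples were all below the controls and in 1 all above, as in 9.55% and 8.96% of all tested genes. Btg1, the closest relative of Btg2, was at 431, 420 and 434 CPM in the control and at 488, 392 and 360 CPM in the knockdown, a log2 fold change of -0.05 (SE 0.17). Tob1, an antiproliferative gene of the same family, and Zfp36l1, which binds AU-rich elements, had log2 fold changes of -0.51 (SE 0.15) and -0.59 (SE 0.27) without overlap of the groups. Zfp36, the gene for tristetraprolin and itself an immediate early gene, was named after its values were seen. It measured 348, 194 and 212 CPM in the control and 30.2, 183 and 91.9 CPM in the knockdown, the order of samples seen in the members.

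Of 10 heat shock genes, which respond to heat and misfolded protein, 5 were below 0, the median was -0.10, and 1 was called. Dnajb1, a co-chaperone of HSP70, measured 66.4, 56.1 and 75.9 CPM in the control and 19.8, 32.5 and 23.5 CPM in the knockdown. The groups did not overlap, and it fell by 1.39 (SE 0.22, adjusted p = 0.0333, edgeR with Benjamini-Hochberg adjustment), a call lost without any single control (adjusted p from 0.106 to 0.175). The summed level of the list was 1211 to 1558 CPM in the control and 1148 to 1433 CPM in the knockdown, so it overlapped between the groups. Hspa8, Hsp90aa1 and Dnaja1 had log2 fold changes of -0.22, 0.13 and -0.24, none of them called.

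**Figure D5:**
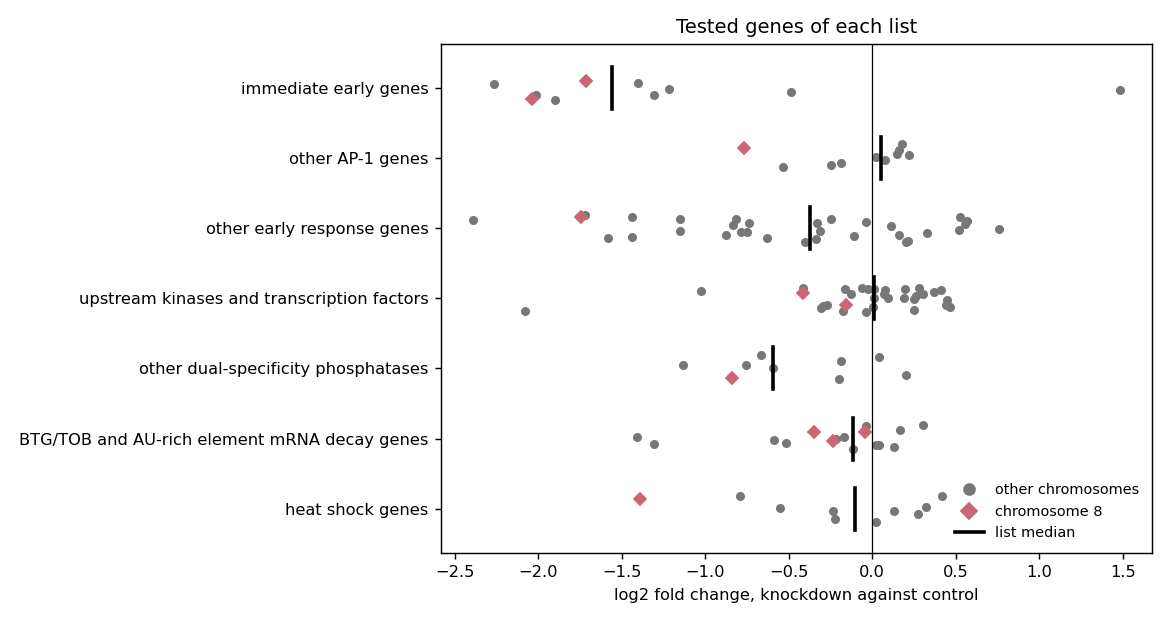
Log2 fold change, knockdown against control, of each tested gene in the lists, 1 point a gene, with genes on chromosome 8 as red diamonds and the list median as a bar. The median is -1.56 for the immediate early genes and -0.37 for the other early response genes, and that of the upstream factors is near 0.

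Ier2 and Junb lie on chromosome 8, where the whole set of 623 tested genes had a median log2 fold change of -0.38. Of the 47 tested genes within 1 Mb of Ier2, 41 were below 0 and the median was -0.40. Around Junb, 35 of 41 neighbors were below 0 with a median of -0.39, and the called gene there was Ier2. Jund, Klf2, Dusp4 and Dnajb1 are also on chromosome 8. Atf3 and Btg2 lie on chromosome 1, whose 674 tested genes had a median log2 fold change of 0.25. Around Dusp1, on chromosome 17, the 45 neighbors had a median of -0.08 and none was called. With the median of each chromosome removed from each sample, the log2 fold change was -1.64 for Ier2, -1.32 for Junb, 1.23 for Atf3 and -1.46 for Btg2, the median of the members was -1.47, and Dusp1 was the only member called. Dusp4 and Dnajb1 then had log2 fold changes of -0.45 and -0.99 and were no longer called (adjusted p = 0.443 and 0.159). The part of the chromosome-wide shift in the values of single genes was not tested further.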

How the data were processed

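RNA of 3 scrambled control and 3 RBMS1 knockdown samples was sequenced by the authors from ribosomal RNA-depleted stranded libraries. Reads were trimmed with Trim Galore 0.6.7, aligned to GRCm38 with STAR 2.7.10a and quantified with Salmon 1.9.0, and the authors deposited the estimated counts per gene without normalization. The annotation release, the summing to genes and the use of strand are not given in the sources used here. Between 3.97% and 7.78% of values per sample were not whole (tolerance 1.0e-06), and counts were rounded. Of 45706 genes, 26300 had no count and 11440 passed filterByExpr.

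Counts were fitted in R 4.3.3 with edgeR 4.0.16 (TMM, estimateDisp, glmQLFit, glmQLFTest) with the group as the sole term. The p-values were adjusted over all tested genes (Benjamini-Hochberg, threshold 0.1). The procedure was also run on simulated counts drawn independently for each gene. That simulation does not cover genes that vary together or a shift along a chromosome, and nothing is read from it here. Log2 CPM for spreads used a prior count of 2. The p-values measure the spread between these samples only, and an exact permutation test of 3 against 3 samples cannot go below 0.1. The members and the gene lists were chosen with earlier results of these data known. The text names the 10 members, Rbms1, the called genes of each list, its 3 most abundant genes where fewer than 3 were called, the 3 most abundant markers of each list, the 5 genes with the most similar within-group pattern and the called neighbors within 1 Mb of Ier2, Junb and Dusp1, except that some genes under this rule are not reported here. Exons and 3′ UTRs came from GENCODE M21, promoters from RefSeq. All 11402 tested genes with an annotation entered the comparison of structure. The alternatives were DESeq2 1.42.0, RLE size factors, library sizes alone, removal of ribosomal RNA-derived genes, no filter, a filter of 1 CPM in 3 samples, a block on the replicate number, removal of chromosome medians and each sample left out. The earlier quasi-likelihood estimates, the TGACG core and the longest-transcript length were added after seeing the data.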

Additional observations from a re-analysis of the deposited data

How the results depend on the processing

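The members were lower or higher in the same direction in all 15 alternatives, and their median ranged from -2.18 to -1.12. With library sizes alone, the median of all genes moved to 0.37 and 33.3% of called genes were lower in place of 74.3%, but no member changed sign. The calls depended more on the setting. Against 140 genes, 430 were called with DESeq2, 268 with no filter, 39 with the replicate block and 71 with chromosome medians removed, and 12 to 696 with a sample left out. Members called numbered 5 with DESeq2, 4 with no filter, 3 with library sizes alone, 0 with the replicate block and 1 with chromosome medians removed, and 0 to 5 with a sample left out. Other early response genes called numbered 7 with DESeq2, 5 with no filter, 0 with the replicate block, 1 each with RLE size factors, library sizes alone (neither Gadd45g nor Errfi1), chromosome medians removed and the earlier quasi-likelihood estimates (Errfi1 and not Gadd45g in both of these and with RLE), and 0 to 6 with a sample left out. For the phosphatases and for the heat shock genes, the count of 1 became 0 with library sizes alone, the replicate block and chromosome medians removed, and 0 to 1 with a sample left out. For the mRNA decay genes, the count of 0 became 1 with DESeq2 and 0 to 1 with a sample left out. The cause of these differences was not tested. Deviations of same-numbered samples correlated at -0.144, 0.078 and -0.028, and those of differently numbered samples at -0.173 to 0.206. With 3 samples in a group, such values cannot decide whether equal numbers mark paired samples. The sources do not state a pairing, so the block describes a shared number only. The depth limits Atf3, Fosb and Ier3 most, with as few as 14, 13 and 31 counts in a library.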
